A study of Homo sapiens with 12 samples.

Results

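The genes LIN28B, IGF2BP1, IGF2BP2, IGF2BP3, HMGA2 and IRS4 are followed here in HEK293T cells, 6 of the 67053 genes in the deposited transcript tables. They were chosen by gene name: the first 5 as oncofetal genes known as targets of the let-7 miRNAs, and IRS4 beside them. IRS4 and IGF2BP3 were in addition picked for their large difference between replicate 2 and replicate 1, so that difference is given below as a description, with no test and no support drawn from it. All 6 genes passed the filter on low values, an FPKM (fragments scaled to transcript length in kilobases and to the library's total) of at least 1 in at least 2 libraries, together with 15183 genes in all.

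HEK293T cells, a human embryonic kidney line, were transfected with 2 µg of a GFP reporter plasmid per well. The 3 groups were a BCL2L11 trigger in the reporter's 3' UTR, a TRIM9 trigger in the same place, and the GFP control. A trigger is a target site that pairs so extensively with a miRNA that the miRNA is degraded (miR-221/222 for BCL2L11, miR-218 for TRIM9), and the study asked whether these triggers lower those miRNAs. RNA was extracted at 48 hours, and each group had 2 poly-A and 2 small RNA libraries, 12 in all. The cells took up plasmid transiently, with PEI or lipofectamine, and the labels do not tell which one a sample received. The labels call the replicates biological, and number them only through the sample titles, 1 to 3 for what is called replicate 1 here and 4 to 6 for replicate 2; they name no batch.

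let-7 miRNAs silence mRNAs whose 3' UTRs carry matches to their seed, the bases near the 5' end that lead target recognition. LIN28B is an RNA-binding protein that blocks the maturation of let-7 precursors, and its own mRNA is a let-7 target, which makes a double-negative loop. The IGF2BP proteins bind mRNAs in the cytoplasm and protect or localise them, and HMGA2 is a chromatin protein. IGF2BP1, IGF2BP3 and HMGA2 are active in the embryo and largely silent in adult tissue. IRS4 is an adaptor of the insulin receptor substrate family, which passes signals from the insulin and IGF1 receptors to PI3 kinase, and it is known as the abundant member of that family in HEK293 cells.

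The mature let-7 sequences are shown because they are the link between the small RNA libraries and the 5 let-7 targets. Capitals mark the seed, bases 2 to 8 counted from the 5' end, as RefSeq (GRCh38.p14) gives them.
let-7a-5p: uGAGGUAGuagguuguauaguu
let-7b-5p: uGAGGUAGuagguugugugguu
let-7c-5p: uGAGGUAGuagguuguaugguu
let-7d-5p: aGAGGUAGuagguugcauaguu
let-7e-5p: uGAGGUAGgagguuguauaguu
let-7f-5p: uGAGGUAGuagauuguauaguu
let-7g-5p: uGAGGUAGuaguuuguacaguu
let-7i-5p: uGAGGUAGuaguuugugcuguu
miR-98-5p: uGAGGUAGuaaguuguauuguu
These 9 miRNAs share 1 seed and differ only outside it. Against let-7a-5p, with positions counted from 1 at the 5' end, let-7f-5p carries G12A, let-7g-5p carries G12U and U18C, and let-7i-5p carries G12U, A17G, U18C and A19U. miR-202-3p, also listed with the family, has another seed (G8U against let-7a-5p) and 1 read in all libraries together.

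The genes of the transfected triggers checked the labels. BCL2L11 had 11275 FPKM in replicate 2 and 11485 FPKM in replicate 1 of the BCL2L11 group, against 6.15 and 5.40 FPKM in GFP cells. TRIM9 had 3948 and 5297 FPKM in the TRIM9 group, against 2.92 and 1.74 FPKM in GFP cells. Of the 7 HEK293 markers listed, NEFL (9.84 to 15 FPKM), NEFM (13.6 to 23.8 FPKM), INA and GAP43 passed the filter, whereas NEFH, PAX2 and LHX1 stayed below 1 FPKM in every library. Summed transcript coverage came to 3.4 to 4.52 gigabases per poly-A library, and the small RNA libraries held 5018875 to 6091151 reads on miRNAs. The poly-A libraries of the 2 replicates stood apart in every group. Replicate 2 had 109805 to 110534 transcripts above 0 and 7.68 to 8.78% of its FPKM on mitochondrial genes, against 83584 to 100723 transcripts and 4.62 to 6.36% in replicate 1. The summed FPKM of RNAs that carry no poly-A tail was 99.8 to 217 in replicate 2 and 247 to 995 in replicate 1. The 5 epithelial markers summed to 27.3 to 33.4 FPKM in replicate 2 and 46.9 to 59.6 FPKM in replicate 1, mostly KRT18 and KRT8, with KRT19 at 0. The 6 blood markers summed to 2.85 to 3.84 FPKM in replicate 2 and 6.18 to 7.79 FPKM in replicate 1, nearly all HBA1, with PTPRC, HBB and CD3E at 0 in every library. The fibroblast, hepatocyte and pluripotent markers summed to 2.1 to 2.56, 0.650 to 2.34 and 3.9 to 4.75 FPKM in replicate 2, and to 1.57 to 7.66, 0.651 to 2.97 and 1.96 to 3.65 FPKM in replicate 1. The part of these differences in the values below was not tested. In bulk RNA, fewer cells expressing a gene and less of its RNA per cell cannot be told apart.

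LIN28B, on chromosome 6 (hg38, 104936616 to 105083332, plus strand), was the LIN28 gene that passed the filter. It had 26.7 FPKM in replicate 2 and 10.2 FPKM in replicate 1 of the BCL2L11 group, 32.2 and 11.9 FPKM in the TRIM9 group, and 26.1 and 13.0 FPKM in the GFP group. Each replicate 2 library was above every replicate 1 library, while the 3 plasmids overlapped. That order of the replicates held for all 6 genes, and for 31.7% (4819) of all genes tested, while 18.2% (2770) had every replicate 2 library below every replicate 1 library; 2 of the 6 were picked for such a difference, and nothing is read from the count. LIN28A, its paralog of early embryonic cells, did not exceed 0.0821 FPKM in any library. Nearly all LIN28B signal came from 1 transcript of 5446 nucleotides and 4 exons, with at least 99.8% of the gene's FPKM in each library. The 2 annotated genes that overlap LIN28B on the other strand reached no more than 0.0639 FPKM.

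IGF2BP1, on chromosome 17 (hg38, 48997385 to 49056145, plus strand), was the most abundant IGF2BP gene in every library. Its values were 27.6 and 21.2 FPKM in replicates 2 and 1 of the BCL2L11 group, 28.3 and 23.6 FPKM in the TRIM9 group, and 32.6 and 22.4 FPKM in the GFP group. Its main transcript of 8796 nucleotides and 15 exons held 94.9 to 96.6% of the gene's FPKM. The highest library exceeded the lowest by 1.54-fold. Of the genes that overlap it, AC091133.5 on the same strand had 0.977 to 4.05 FPKM and AC091133.3 on the other strand 0.314 to 2.12 FPKM.

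IGF2BP2, on chromosome 3 (hg38, 185643130 to 185825042, minus strand), was expressed at a lower level. It had 12 and 9.45 FPKM in replicates 2 and 1 of the BCL2L11 group, 13.9 and 9.75 FPKM in the TRIM9 group, and 14.3 and 11.9 FPKM in the GFP group, a range of 1.51-fold. It was the only one of the 6 genes with more than 1 transcript at a mean share of 10% or more. The transcript of 4283 nucleotides took 54.7 to 96.8% of the gene's FPKM. A transcript of 3291 nucleotides with 1 exon fewer took 21.9% in GFP replicate 2, but was listed at 0 in GFP replicate 1. In replicates 2 and 1 that shorter transcript took 13.5 and 13.3% in the BCL2L11 group, and 21.2 and 21.6% in the TRIM9 group. How many reads tell these transcripts apart cannot be read from the tables, and the split was not tested.

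IGF2BP3, on chromosome 7 (hg38, 23310209 to 23470491, minus strand), differed most between replicates within its family. It had 11.6 FPKM in replicate 2 and 1.36 FPKM in replicate 1 of the BCL2L11 group, 14.5 and 2.29 FPKM in the TRIM9 group, and 12.6 and 2.33 FPKM in the GFP group. Across plasmids it spanned 11.6 to 14.5 FPKM within replicate 2 and 1.36 to 2.33 FPKM within replicate 1. The mean read coverage of its main transcript was 46.6 to 61.1 in replicate 2 and 5.2 to 9.13 in replicate 1, so the replicate 1 levels rest on far fewer reads. Of the summed FPKM of the 3 IGF2BP genes, IGF2BP3 made up 21.2 to 25.6% in replicate 2 and 4.25 to 6.43% in replicate 1, while IGF2BP1 made up 49.8 to 54.8% in replicate 2 and 61.1 to 66.3% in replicate 1. The 3' end of IGF2BP3 overlaps MALSU1 on the other strand, a mitochondrial ribosome assembly factor with 15.1 to 16.0 FPKM in replicate 2 and 26.0 to 28.6 FPKM in replicate 1. The labels do not say whether the libraries kept strand, so reads in that overlap cannot be told apart; the 2 genes differ between replicates in opposite directions.

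HMGA2, on chromosome 12 (hg38, 65824460 to 65966291, plus strand), had 19.5 and 10.4 FPKM in replicates 2 and 1 of the BCL2L11 group, 22.9 and 12.1 FPKM in the TRIM9 group, and 17.6 and 15.9 FPKM in the GFP group. The BCL2L11 and TRIM9 replicates thus lay apart, and the GFP replicates lay close together. Its full-length transcript of 4117 nucleotides took 95.4 to 98.4% of its FPKM.

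IRS4, on chromosome X (hg38, 108732482 to 108736409, minus strand), was the highest of the 6 in replicate 2 and not in replicate 1. It had 65.4 FPKM in replicate 2 and 9.46 FPKM in replicate 1 of the BCL2L11 group, 80.3 and 16.0 FPKM in the TRIM9 group, and 65.9 and 8.61 FPKM in the GFP group. The replicate difference, for which IRS4 was picked, was larger than the spread between plasmids within a replicate. IRS4 is annotated as 1 exon and 1 transcript of 3928 nucleotides, so no choice between isoforms enters its level. Of the summed FPKM of IRS1, IRS2 and IRS4, it made up 95.7 to 97.1% in replicate 2 and 87.1 to 93.4% in replicate 1. IRS2 had 1.82 to 2.36 FPKM in replicate 2 and 0.669 to 0.980 FPKM in replicate 1, and IRS1 stayed under 1 FPKM throughout.

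**Figure D1:**
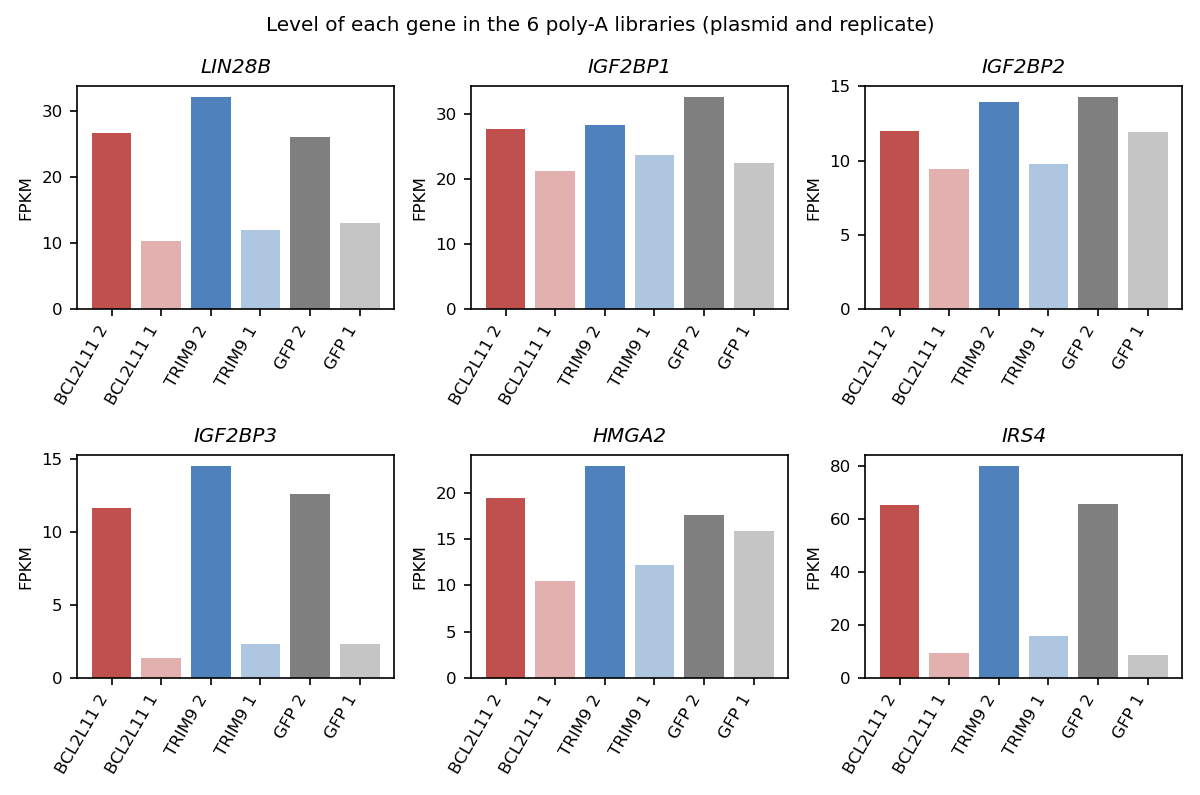
FPKM (y axis, from 0) of each of the 6 genes in the 6 poly-A libraries, 1 bar per library, by plasmid and replicate; dark bars are replicate 2 and pale bars replicate 1. IRS4 stands at 65.4 to 80.3 FPKM in replicate 2 and 8.61 to 16.0 FPKM in replicate 1, whereas IGF2BP1 spans 21.2 to 32.6 FPKM over all libraries.

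Within a replicate, the order of the levels was alike across plasmids. In replicate 2, IRS4 was highest in all 3 groups, LIN28B and IGF2BP1 followed in an order that changed between plasmids, HMGA2 came after them, and IGF2BP2 and IGF2BP3 were lowest, again with a changing order. In replicate 1, IGF2BP1 was highest and IGF2BP3 lowest in all 3 groups. LIN28B, HMGA2, IGF2BP2 and IRS4 lay between 8.61 and 16.0 FPKM. HMGA2 stood above LIN28B, and LIN28B above IGF2BP2, in all 3 groups, while the place of IRS4 among them changed from plasmid to plasmid. Neighbours in that middle range did not differ beyond the spread between plasmids.

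The difference between replicate 2 and replicate 1 was taken on log2(FPKM + 1) in each group. It came to 2.67, 2.26 and 2.80 for IRS4 in the BCL2L11, TRIM9 and GFP groups, and to 2.42, 2.24 and 2.03 for IGF2BP3. LIN28B had 1.30, 1.36 and 0.95, HMGA2 0.84, 0.87 and 0.14, IGF2BP1 0.37, 0.25 and 0.52, and IGF2BP2 0.32, 0.47 and 0.24. The median over all 15183 genes was 0.04, 0.01 and 0.20. With FPKM rescaled by TMM, a scaling that sets the bulk of genes level between libraries, that median moved to -0.05, -0.07 and 0.02, and the HMGA2 difference in the GFP group turned to -0.068; the other 17 differences of the 6 genes stayed above 0. On log2(FPKM + 1), IRS4 and IGF2BP3, 2 of the 6 genes, were higher in replicate 2 by 2-fold or more in all 3 groups. Of all genes tested, 1.96% (297) were higher and 0.415% (63) lower by that rule. The counts were 129 higher and 136 lower after TMM rescaling, and 778 higher and 130 lower with 0.1 in place of 1 added to the FPKM. On the plain FPKM ratio, a form of the rule added after the values were seen, 5.64% (857) of genes were higher and 1.01% (153) lower, and LIN28B joined IRS4 and IGF2BP3, so that 3 of the 6 genes were higher. Nothing is read from these counts of the 6 genes, since IRS4 and IGF2BP3 were picked for that difference. Ranked by the smallest of its 3 differences, IRS4 was 2nd and IGF2BP3 5th of 15183 genes. LIN28B was 376th on log2(FPKM + 1), where its 0.95 in the GFP group lay just under the limit; its plain FPKM ratios were 2.61, 2.71 and 2.01 in the BCL2L11, TRIM9 and GFP groups.

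Across all genes the replicate difference moved with transcript length. Genes with a main transcript of up to 1000 nucleotides had median differences of -0.49, -0.45 and -0.21 in the BCL2L11, TRIM9 and GFP groups, and genes over 10000 nucleotides had 0.70, 0.71 and 0.59. In the class of 4000 to 6000 nucleotides, which holds LIN28B, IGF2BP2, IGF2BP3 and HMGA2, the medians were 0.43, 0.41 and 0.42, and 3.64% of genes were higher by 2-fold in all 3 groups. In the class of IRS4, 3000 to 4000 nucleotides, the medians were 0.20, 0.19 and 0.29, with 1.29% of genes higher. IGF2BP1, the longest of the 6, lay in the class of 6000 to 10000 nucleotides with medians of 0.60, 0.60 and 0.52, and was below them in the BCL2L11 and TRIM9 groups and level with them in the GFP group. IGF2BP2 was below its class in the BCL2L11 and GFP groups and above it in the TRIM9 group. LIN28B lay above the median of its class in every group, and HMGA2 in 2 of 3 groups. IRS4 and IGF2BP3 lay above theirs in every group, which restates the difference they were picked for and is no finding. The part of length in these values was not tested.

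**Figure D2:**
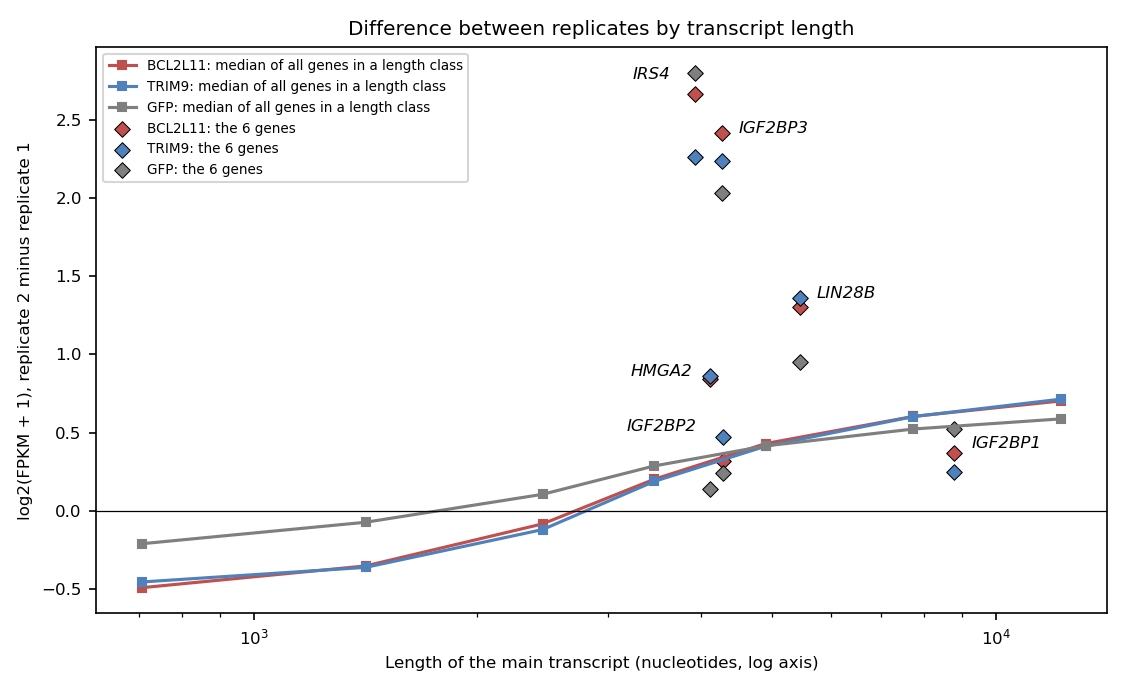
Difference between replicate 2 and replicate 1 on log2(FPKM + 1) (y axis) against the length of the main transcript in nucleotides (log x axis). Squares joined by lines are the medians of all tested genes in 7 length classes, 1 line per plasmid, and diamonds are the 6 genes; the medians climb with length, and IRS4 and IGF2BP3 stand at 2.03 to 2.80.

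Genes on the same strand just downstream of IRS4 were described next, a choice made after the values were seen. 3 annotated transcripts without a described function lie there on chromosome X, hg38, minus strand. AL035425.4 (108725886 to 108726948, 5533 bases past the end of IRS4) had 27.3 and 0.258 FPKM in replicates 2 and 1 of the BCL2L11 group, 36.1 and 1.74 FPKM in the TRIM9 group, and 26.2 and 0.463 FPKM in the GFP group. Its log2 differences of 4.49, 3.76 and 4.22 exceeded those of IRS4 itself. AL035425.3 (108719949 to 108724944, 7537 bases past the end of IRS4) had 87.5 and 49.8 FPKM in the BCL2L11 group, 112 and 60.3 FPKM in the TRIM9 group, and 83.1 and 73.2 FPKM in the GFP group. The farthest of these annotations was therefore the most abundant in every library and had the smallest replicate difference, 0.80, 0.89 and 0.18. AL035425.2, which overlaps the end of IRS4 and reaches into both, had 3.36 to 4.29 FPKM in replicate 2 and 0.579 to 1.03 FPKM in replicate 1. AL035425.1, on the other strand over the start of IRS4, had 2.12 to 2.76 FPKM in replicate 2 and 1.04 to 1.55 FPKM in replicate 1. COL4A5, a collagen gene also on the other strand 34936 bases away, had 3.83 to 4.26 FPKM in replicate 2 and 2.17 to 3.71 FPKM in replicate 1. Whether these annotations and IRS4 share a transcript was not tested.

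**Figure D3:**
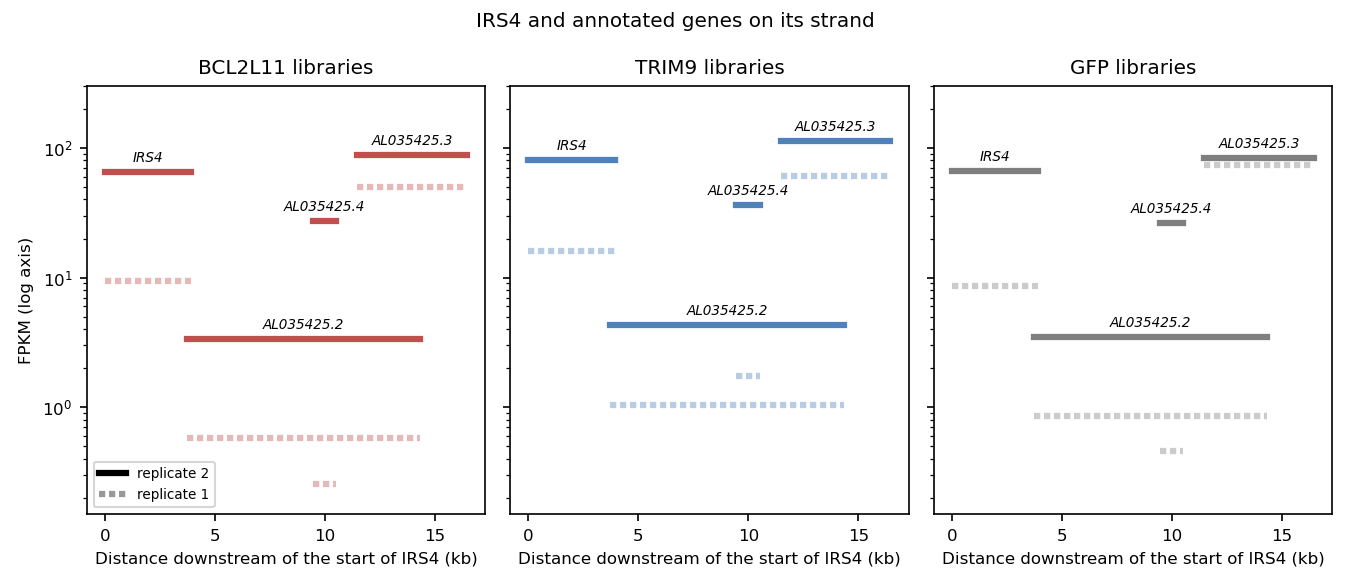
FPKM (log y axis) of IRS4 and of 3 annotated genes on its strand, drawn over their span as distance downstream of the start of IRS4 in kilobases (x axis), 1 panel per plasmid. Solid lines are replicate 2 and dotted lines replicate 1; AL035425.4 stands at 26.2 to 36.1 FPKM in replicate 2 and 0.258 to 1.74 FPKM in replicate 1, and AL035425.3 stays at 49.8 FPKM or more in every library.

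The genes whose pattern over the 6 libraries was nearest to each of the 6 were found among 8501 genes with a mean of at least 5 FPKM, by the root mean square difference of log2(FPKM + 1) about each gene's mean. The search kept all entries of a gene name, those outside the main chromosomes included, so a named gene can be a secondary entry. Nearest to IRS4 were PCMTD2 (0.23), MFAP3 (0.26) and IGF2BP3 itself (0.31), and nearest to IGF2BP3 were MFAP3 (0.19), BTAF1 (0.25) and DENND4C (0.26). MFAP3 had 9.73 to 10.1 FPKM in replicate 2 and 1.06 to 1.34 FPKM in replicate 1. LIN28B was followed more closely, by LANCL1 (0.041), HEATR1 (0.049) and TMPO (0.052), and among the nearest to HMGA2 were AL035425.3 (0.046) and GTF2H2 (0.049). AL035425.3 is the transcript downstream of IRS4, and its levels were nearer to the pattern of HMGA2 than to that of IRS4. POLE3, NFRKB and DIP2A were nearest to IGF2BP1 (0.024 to 0.031), and SLC20A2, COPG2 and SRR to IGF2BP2 (0.030 to 0.036). IRS4 and IGF2BP3 were both picked for their replicate difference, so their nearness to each other restates that choice and is no finding. The 6 libraries fall into 2 replicates that stand apart, so these distances rest on few independent points.

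The trigger plasmids were then compared with GFP and with each other. None of the 6 genes passed an adjusted p of 0.05 in any of the 3 comparisons by limma across all genes, and in that fit, which has no term for the replicate, none had an unadjusted p below 0.05. Of all genes 0.00659% (1 of 15183) passed for BCL2L11 against GFP and likewise 0.00659% for TRIM9 against GFP. In each case it was the gene of the transfected trigger. For BCL2L11 against TRIM9 0.0132% (2) passed, both of them genes of the transfected triggers. At an unadjusted p below 0.05 stood 83, 175 and 98 genes. The spread in this fit includes the replicate difference for every gene, which limits what the absence of calls can show. With a replicate block, 543 of 15183 genes had an unadjusted limma p below 0.05 for BCL2L11 against GFP, and 1 gene passed the adjusted threshold. LIN28B had a log2 fold change of -0.14 for BCL2L11 against GFP (SE 0.62, 95% interval -1.61 to 1.33, limma adjusted p = 0.9999) and of 0.087 for TRIM9 against GFP (SE 0.62, interval -1.38 to 1.56). IRS4 averaged 37.4 ± 39.5 FPKM in BCL2L11 cells, 48.1 ± 45.5 FPKM in TRIM9 cells and 37.3 ± 40.5 FPKM in GFP cells (SD, n = 2 each). Its log2 fold change was 0.055 for BCL2L11 against GFP (interval -2.82 to 2.93) and 0.55 for TRIM9 against GFP (interval -2.33 to 3.43), the widest intervals of the 6 genes. As a fold, the interval for BCL2L11 against GFP ran from 0.141 to 7.64. For IGF2BP3 the values were -0.30 (interval -2.82 to 2.21) for BCL2L11 and 0.087 (interval -2.43 to 2.60) for TRIM9, both against GFP. The spread behind the intervals of IRS4 and IGF2BP3 includes the replicate difference for which those genes were picked.

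The narrowest intervals belonged to the IGF2BP genes of steady level. IGF2BP1 had a log2 fold change of -0.15 (interval -0.92 to 0.61) in BCL2L11 cells and -0.062 (interval -0.83 to 0.70) in TRIM9 cells against GFP, and IGF2BP2 one of -0.27 (interval -1.02 to 0.48) and -0.15 (interval -0.90 to 0.60). HMGA2 had -0.21 (interval -1.21 to 0.78) in BCL2L11 cells and 0.00016 (interval -0.99 to 0.99) in TRIM9 cells. For BCL2L11 against TRIM9 the log2 fold changes of the 6 genes were -0.092 to -0.50, and the interval of each included 0. Within replicates, TRIM9 minus GFP was 0.28 in replicate 2 and 0.82 in replicate 1 for IRS4, and 0.36 in replicate 2 and -0.36 in replicate 1 for HMGA2. BCL2L11 minus GFP had the same sign in both replicates for IGF2BP1, IGF2BP2 and IGF2BP3 and opposite signs for LIN28B, HMGA2 and IRS4. With 2 libraries a group, an exact permutation test of a single gene cannot go below p = 0.333, so no such test was run.

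**Figure D4:**
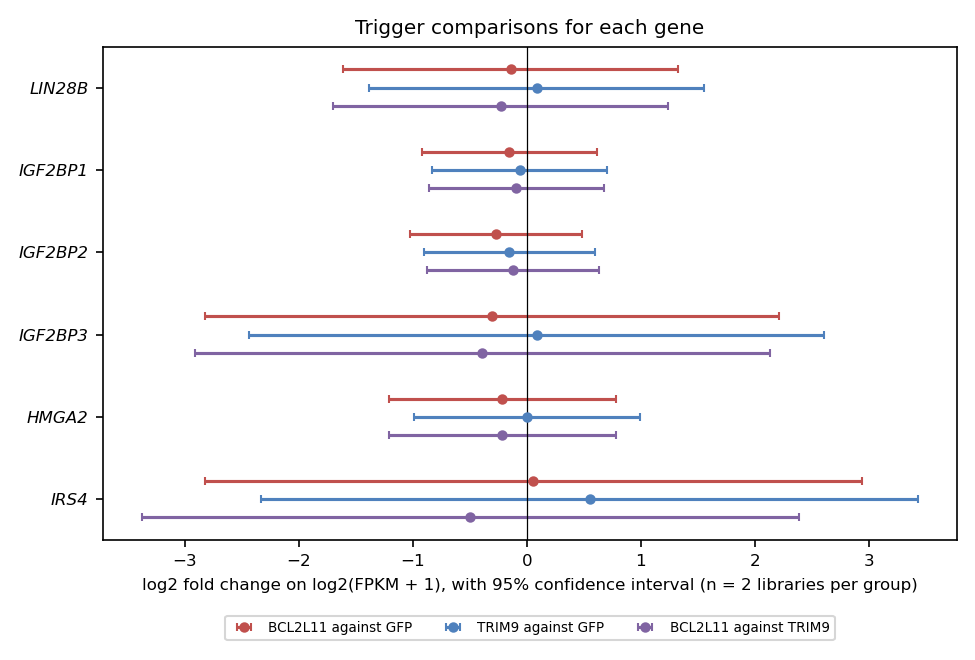
Log2 fold change on log2(FPKM + 1) (x axis) of each of the 6 genes (rows) for BCL2L11 against GFP, TRIM9 against GFP and BCL2L11 against TRIM9, 2 libraries per group; points are limma estimates and bars 95% confidence intervals. Every interval includes 0, and the bars of IRS4 and IGF2BP3 are the widest, reaching 3.43 for IRS4.

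In the authors' deposited table for BCL2L11 against GFP, 5 of the 6 genes were listed, without IGF2BP2, with ratios of 3.18 for IRS4 (p = 0.499, q = 1), 1.99 for IGF2BP3, 1.37 for LIN28B, 1.10 for IGF2BP1 and 0.969 for HMGA2. In the authors' deposited table for TRIM9 against GFP the ratios were 2.28 for IRS4, 1.45 for IGF2BP3, 1.25 for LIN28B, 1.03 for IGF2BP1 and 1.04 for HMGA2. No gene of either deposited table had a q below 0.05. On log2(FPKM + 1), the fitted fold of IRS4 was 1.04 for BCL2L11 and 1.46 for TRIM9, both against GFP, so the authors' deposited table and the fit to the FPKM give different sizes for the same pair. The labels do not say how those ratios were made.

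The other genes of the let-7 pathway were taken from lists. Of 35 other let-7 targets, 30 were tested, and none passed in either direction for BCL2L11 or TRIM9 against GFP by limma, nor had an unadjusted p below 0.05. Their median log2 fold change was -0.13 for BCL2L11, beside -0.08 over all genes, and -0.05 for TRIM9, beside -0.04. The lowest p belonged in both comparisons to HMGA1, the paralog of HMGA2, with 129 and 184 FPKM in replicates 2 and 1 of the BCL2L11 group, 135 and 252 FPKM in the TRIM9 group, and 145 and 85.4 FPKM in the GFP group. HMGA1 had log2 fold changes of 0.46 for BCL2L11 and 0.72 for TRIM9, both against GFP. Its replicate difference on log2(FPKM + 1) ran opposite to that of HMGA2 in both trigger groups, at -0.50 and -0.89. In the GFP group the difference of HMGA1 was 0.76, of the same sign as that of HMGA2 (0.14). FAS, a death receptor, had -0.76 for TRIM9, and CDK6, a cell cycle kinase, -0.37 for BCL2L11. By the replicate rule on log2(FPKM + 1), and so named after their values were seen, 2 of the 30 were higher in all 3 groups, namely DICER1, which cuts let-7 precursors and is itself a let-7 target (13.5 to 15.9 FPKM in replicate 2, 4.16 to 6.37 FPKM in replicate 1), and SMARCAD1 (16.8 to 20.3 FPKM and 5.02 to 7.64 FPKM), beside the 1.96% of all genes. The median replicate difference of the 30 was 0.46, 0.40 and 0.51 in the BCL2L11, TRIM9 and GFP groups. Over all genes it was 0.04, 0.01 and 0.20, and over all genes of 4000 to 6000 nucleotides 0.43, 0.41 and 0.42. The part of transcript length in the values of the 30 was not tested.

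Of 17 genes of LIN28 and let-7 processing, all were tested and none passed for either trigger against GFP. DGCR8, the RNA-binding partner of DROSHA, had the lowest p, with log2 fold changes of -0.28 for BCL2L11 and -0.26 for TRIM9. TUT4, which adds the uridine tail to precursors held by LIN28, had 13.5 to 16.2 FPKM in replicate 2 and 5.37 to 8.81 FPKM in replicate 1. Other genes of the list are given for their role, after their values were seen. TUT7, which tails precursors too, had 6.37 to 6.66 FPKM in replicate 2 and 2.15 to 2.95 FPKM in replicate 1, and DIS3L2, the nuclease that degrades the tailed precursor, had 4.94 to 5.18 FPKM and 4.01 to 4.59 FPKM.

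Of 31 genes of insulin and IGF signalling, 30 were tested and none passed for either trigger against GFP. GRB10, an adaptor that dampens the insulin receptor, had the lowest p for BCL2L11 at a log2 fold change of -0.45, and MTOR the lowest for TRIM9 at -0.44. The receptors INSR and IGF1R, which signal through IRS proteins and are likewise given for their role, had 2.63 to 3.23 and 5.04 to 5.63 FPKM in replicate 2, and 1.62 to 2.27 and 2.58 to 3.64 FPKM in replicate 1. On log2(FPKM + 1) 0 of the 30 differed between replicates by 2-fold in all 3 groups, beside 1.96% of all genes higher and 0.415% lower. On the plain FPKM ratio 3 of the 30 were higher in replicate 2, namely IRS2, GAB1 and PHIP, beside 5.64% of all genes. RICTOR, a subunit of mTOR complex 2, had 7.33 and 0.540 FPKM in replicates 2 and 1 of the BCL2L11 group, but 6.78 and 3.52 FPKM in the GFP group. Of 12 other oncofetal genes, 4 were tested and none passed; GPC3, a cell surface proteoglycan, had 11.3 to 13.7 FPKM in replicate 2 and 12.7 to 16.7 FPKM in replicate 1, and IGF2 and H19, which IGF2BP proteins are known to bind, stayed below 0.24 FPKM. PLAG1, a transcription factor of fetal growth, had 2.68 to 3.50 FPKM in replicate 2 and 0.670 to 1.04 FPKM in replicate 1. TRIM71 had 2.31 to 2.82 FPKM in replicate 2 and 1.07 to 1.59 FPKM in replicate 1. CRABP2 ran the other way, with 8.84 to 12.6 FPKM in replicate 2 and 14.8 to 26.2 FPKM in replicate 1. Of the 9 listed mRNAs that IGF2BP proteins are known to bind, 6 were tested, LIN28B and HMGA2 among them, and none passed for either trigger.

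The let-7 miRNAs themselves made up 0.781 to 1.05% of the miRNA reads in the 6 small RNA libraries. let-7f-5p gave 44.8 to 48.4% of the family's reads, let-7g-5p 20.0 to 22.6%, let-7a-5p 12.8 to 15.9% and let-7i-5p 9.74 to 13.3%. let-7f-5p had 26029 and 25191 reads in replicates 2 and 1 of the BCL2L11 group, 19933 and 24853 reads in the TRIM9 group, and 23461 and 26379 reads in the GFP group. As CPM (counts scaled to the total of miRNA reads), let-7f-5p stood at 4273 and 5019 in BCL2L11 cells, 3718 and 4685 in TRIM9 cells, and 4455 and 5041 in GFP cells, so the groups overlapped. let-7c-5p had 118 to 159 CPM in replicate 2 and 252 to 269 CPM in replicate 1, and let-7e-5p had 177 to 218 CPM in replicate 2 and 301 to 388 CPM in replicate 1. miR-98-5p, let-7b-5p and let-7d-5p stayed at or below 52.4 CPM.

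The summed family was lower in replicate 2 than in replicate 1 in CPM, at 9037 and 10545 in BCL2L11 cells, 7811 and 10467 in TRIM9 cells, and 9833 and 10424 in GFP cells, but the sign turned in TRIM9 cells after TMM scaling, at 10049 in replicate 2 and 8979 in replicate 1. In the BCL2L11 group TMM scaling gave 9831 in replicate 2 and 9841 in replicate 1, and in the GFP group 9240 and 9914. With DESeq2's size factors the sum was 10089 in replicate 2 and 9794 in replicate 1 of the BCL2L11 group, so its sign turned there too; these scalings were added after the values were seen. The median of the tested miRNAs in CPM differed between replicates by -0.25, -0.62 and 0.015 on the log2 scale in the BCL2L11, TRIM9 and GFP groups. The let-7 sum was lower in replicate 2 under all 3 scalings in the GFP group, but not in the BCL2L11 and TRIM9 groups. LIN28B FPKM was higher in replicate 2 in each group, and a link between the let-7 sum and LIN28B was not tested. The labels do not say whether both assays used the same RNA extracts.

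None of the 9 tested let-7 family miRNAs passed in any comparison by edgeR's quasi-likelihood test over 443 miRNAs, none had an unadjusted p below 0.05, and DESeq2 called none. Among all miRNAs 0.226% (1 of 443) passed for BCL2L11 against GFP and 0.226% for BCL2L11 against TRIM9, both times miR-221-3p. That count was 0 for BCL2L11 against GFP whichever of the 6 libraries was left out. For TRIM9 against GFP edgeR called 0% (0 of 443; 20 miRNAs had an unadjusted p below 0.05), and DESeq2 also called none. miR-221-3p, the miRNA the BCL2L11 trigger is meant to degrade, had 10985 and 9830 reads in replicates 2 and 1 of the BCL2L11 group, against 24989 and 21969 reads in the GFP group. The log2 fold changes of the let-7 family lay between -0.13 for let-7b-5p (SE 0.20, edgeR adjusted p = 0.995) and 0.19 for miR-98-5p (SE 0.20, adjusted p = 0.995) for BCL2L11 against GFP. For TRIM9 against GFP they lay between -0.13 for let-7d-5p (SE 0.32, edgeR adjusted p = 0.988) and 0.20 for let-7e-5p (SE 0.26, adjusted p = 0.973). let-7f-5p, the most abundant, had 0.056 (SE 0.16) and -0.029 (SE 0.16). In the authors' deposited table for BCL2L11 against GFP let-7f-5p had a log2 fold change of 0.066, and in the authors' deposited table for TRIM9 against GFP one of -0.030. The opposite strands of the hairpins had at most 41 reads in any library, and let-7a-3p, let-7d-3p and let-7e-3p were tested. let-7e-3p had 0 and 4 reads in replicates 2 and 1 of the BCL2L11 group, against 14 and 11 reads in the GFP group. Its log2 fold change of -2.55 (SE 1.01) had an unadjusted p of 0.0357 and did not pass, at an edgeR adjusted p = 0.995. miR-125a-5p and miR-125b-5p, which are known to repress LIN28 mRNAs, had log2 fold changes of -0.32 and -0.32 for BCL2L11 and -0.31 and -0.43 for TRIM9 against GFP, with an edgeR adjusted p of 0.995 for BCL2L11 and 0.958 for TRIM9, and miR-9-5p had -0.028 and 0.035.

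**Figure D5:**
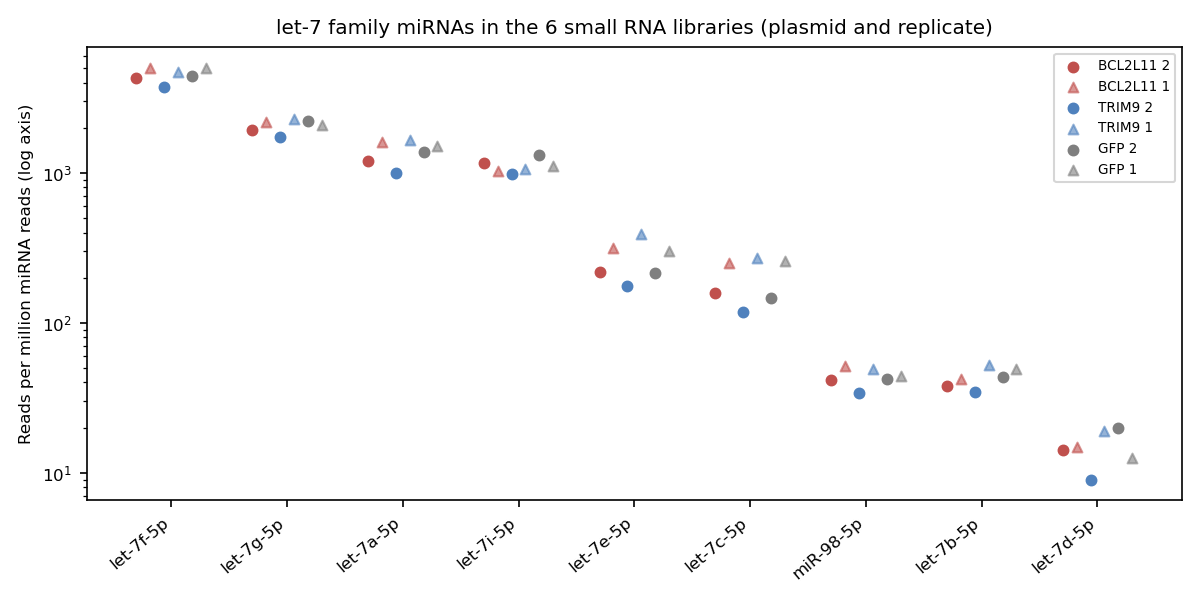
CPM, counts scaled to the total of miRNA reads (log y axis), of the 9 let-7 family miRNAs that passed the filter, 1 point per small RNA library; circles are replicate 2, triangles replicate 1, and colours the plasmids. let-7f-5p stands highest at 3718 to 5041 CPM, and its plasmids overlap; let-7d-5p stands lowest.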

How the data were processed

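Poly-A RNA and small RNA (18 to 40 nucleotides) were sequenced from 6 libraries each, 2 per group. The tools named, per the submitters' processing notes, are STAR, StringTie (2.1.3), cutadapt (3.4) and DESeq2 (1.20.0), and the build is hg38. Per the file headers, the transcript tables hold FPKM and mean read coverage for each annotated transcript, as deposited. The deposited miRNA table holds raw read counts per mature miRNA, not normalised. The authors' deposited comparison tables hold, for genes, p-values and q-values beside a ratio (fold change) and its log2, and for miRNAs, per the file headers, a mean over libraries (in part as its log10), a log2 fold change, a test score and p-values. The isoform comparison tables were not used, and 0 columns of per-sample values were left unmapped.

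From these, gene FPKM was summed over the transcripts of a gene and tested as log2(FPKM + 1) with limma 3.58.1 (trend, two-sided, groups only, all 6 libraries), for genes at 1 FPKM or more in at least 2 libraries. A fold change on this scale understates the change of low genes. miRNA counts were tested with edgeR 4.0.16 (TMM, filterByExpr, quasi-likelihood, two-sided), with DESeq2 1.42.0 as an alternative; R was 4.3.3, and the tests were tried on simulated data. p-values were Benjamini-Hochberg adjusted over all genes or miRNAs tested, with a threshold of 0.05, and the fit pools the spread of all 3 groups. The labels call the replicates biological without saying whether they were separate cultures, so p-values measure the spread between these samples. No 2 libraries of an assay held identical values. FPKM carries no read count of its own, and precision was judged from the spread and the coverage. For miRNAs the totals of reads set the counting error.

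The 6 genes and the gene lists were chosen with earlier results of these data known. Named besides the 6 genes were the let-7 miRNAs that passed the filter, up to 4 tested genes of lowest p per list and trigger, the 3 genes of nearest pattern, genes that overlap one of the 6, and transcripts with a mean share of at least 10%; exceptions are marked, and 1 gene that this rule names is not reported here. Alternatives were other scalings, pseudocounts, filters and tools, fits of only the groups compared, a replicate block, and each library left out.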

Additional observations from a re-analysis of the deposited data

How the results depend on the processing

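None of the 6 genes and none of the let-7 family passed under any of the 13 alternatives of each trigger comparison, by limma, edgeR or DESeq2, and the adjusted p of the 6 genes ran from 0.771 to 1. Without the alternatives that leave out a library, 2 of the 6 genes' fold changes and 12 of the let-7 family's changed sign, all of them small. For TRIM9 against GFP, IGF2BP1 turned to 0.0032 after TMM rescaling and HMGA2 to -0.0034 with a pseudocount of 0.1. On total counts, let-7a-5p, let-7f-5p and let-7g-5p turned to -0.040, -0.031 and -0.062 for BCL2L11 against GFP, and let-7b-5p, let-7g-5p and miR-98-5p to -0.088, -0.096 and -0.060 for TRIM9 against GFP. There let-7c-5p turned to 0.0069 with at least 100 counts. For BCL2L11 against TRIM9, let-7g-5p turned to 0.0062 with DESeq2's size factors, 0.035 on total counts, 0.0063 with DESeq2 and 0.028 with the compared groups alone. HMGA2 in the GFP group turned to -0.068 between replicates after TMM rescaling. Genes higher and lower in replicate 2 by 2-fold in all 3 groups numbered 129 and 136 after TMM rescaling, 778 and 130 with a pseudocount of 0.1, and 857 and 153 on the plain FPKM ratio, chosen after seeing the data, against 297 and 63 on log2(FPKM + 1). The log2 difference of the let-7 sum between replicates, in scalings chosen after seeing the data, turned to 0.16 in TRIM9 cells with TMM and, with DESeq2's size factors, to 0.043 in BCL2L11 cells and 0.22 in TRIM9 cells. The number of miRNAs that passed for BCL2L11 against GFP was 0 on total counts and 0 with the compared groups alone, and for BCL2L11 against TRIM9 it was 0 on total counts, 3 with DESeq2 and 4 without a filter. For TRIM9 against GFP 1 miRNA passed without a filter, and 5 genes with the compared groups alone. The causes of these changes were not tested.

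Replicate numbers do not state a pairing. Over 15183 genes the replicate differences of BCL2L11 and TRIM9, BCL2L11 and GFP, and TRIM9 and GFP correlated at 0.83, 0.58 and 0.49, but with 2 numbers the pairing cannot be settled. With a replicate block, 6 genes passed for TRIM9 against GFP, and 5 miRNAs for BCL2L11 against GFP and 4 for BCL2L11 against TRIM9; none was one of the 6 genes or of the let-7 family. There the SE of IRS4 was 0.19. Its unadjusted p fell below 0.05 for TRIM9 against GFP (log2 fold change 0.55, limma adjusted p 0.771) and for BCL2L11 against TRIM9 (log2 fold change -0.50, not past the adjusted threshold). With the same block, let-7c-5p turned to 0.016 for TRIM9 against GFP.

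Leaving out 1 library leaves its group with 1, assumed to vary like the others, and sets replicates of unequal number against each other. Then 0 miRNAs passed for BCL2L11 against GFP, 0 to 1 for BCL2L11 against TRIM9, and 1 to 5 genes for TRIM9 against GFP. Log2 fold changes for BCL2L11 against GFP ran from -0.79 to 0.51 for LIN28B, -0.42 to 0.11 for IGF2BP1, -1.51 to 0.91 for IGF2BP3, -0.64 to 0.21 for HMGA2 and -1.35 to 1.46 for IRS4, and from -0.059 to 0.14 for let-7a-5p, -0.27 to 0.58 for let-7c-5p, -0.34 to 0.28 for let-7d-5p, -0.10 to 0.40 for let-7e-5p, -0.039 to 0.16 for let-7f-5p, -0.0013 to 0.065 for let-7g-5p and -0.25 to 0.16 for let-7i-5p. For TRIM9 against GFP they ran from -0.59 to 0.77 for LIN28B, -0.32 to 0.20 for IGF2BP1, -0.39 to 0.085 for IGF2BP2, -1.03 to 1.21 for IGF2BP3, -0.43 to 0.43 for HMGA2 and -0.85 to 1.95 for IRS4, and from -0.11 to 0.035 for let-7a-5p, -0.055 to 0.10 for let-7b-5p, -0.37 to 0.45 for let-7c-5p, -0.44 to 0.21 for let-7d-5p, -0.12 to 0.44 for let-7e-5p, -0.21 to 0.073 for let-7f-5p, -0.10 to 0.12 for let-7g-5p, -0.39 to 0.13 for let-7i-5p and -0.016 to 0.091 for miR-98-5p. For BCL2L11 against TRIM9 they ran from -0.91 to 0.45 for LIN28B, -0.28 to 0.093 for IGF2BP1, -0.36 to 0.12 for IGF2BP2, -1.60 to 0.82 for IGF2BP3, -0.65 to 0.22 for HMGA2 and -1.83 to 0.84 for IRS4, and from -0.0086 to 0.17 for let-7a-5p, -0.12 to 0.46 for let-7c-5p, -0.093 to 0.37 for let-7d-5p, -0.26 to 0.26 for let-7e-5p, -0.00098 to 0.27 for let-7f-5p, -0.073 to 0.14 for let-7g-5p and -0.18 to 0.36 for let-7i-5p. The coverage of IGF2BP3 in replicate 1, the lowest of the 6 genes, limits what its levels there can show.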
